A study of Homo sapiens with 8 samples.

Results

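The 10 genes described belong to the G1 phase machinery and were measured in A549, a cell line from a human lung adenocarcinoma: CDKN1A, CDKN1B, CDKN1C, CDKN2C, CDKN2D and CDKN3 as CDK inhibitors or CDK-directed enzymes, and CCND1, CCND3, CCNE1 and CCNE2 as G1 cyclins. They were taken by symbol, through the match of each table's Ensembl identifiers to GENCODE release 29, and make up 10 of the 66206 genes in each of the 2 tables. The libraries came from A549 cells given 25 pmol of a locked nucleic acid (LNA) gapmer, an antisense oligonucleotide that leads to cleavage of its target, here the long non-coding RNA LY6K-AS, with scramble LNA gapmer at 25 pmol as their control, and A549 cells given 40 pmol of an siRNA against YWHAG, with scramble siRNA at 40 pmol as their control. Each of the 4 groups held 2 libraries, all from cells transfected with the same reagent, and the study's title concerns mitotic progression. YWHAG encodes 14-3-3 gamma, a phosphoserine-binding adaptor. The knockdown titles (LNA1 and LNA3, si1 and si2) may stand for separate oligonucleotides, which the labels do not settle; they are called knockdown libraries 1 and 2 here. Nothing in the labels says that libraries came from separate cultures, so every p-value measures the spread between these libraries. That spread may be technical or, between knockdown libraries, come from separate oligonucleotides.

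Progress through G1 depends on cyclin-dependent kinases that act only when bound to a cyclin. D cyclins pair with CDK4 and CDK6, E cyclins pair with CDK2, and both complexes phosphorylate the retinoblastoma protein, which then releases E2F factors. Inhibitors of the Cip/Kip family bind cyclin-CDK complexes widely, whereas INK4 proteins bind CDK4 and CDK6 alone. A549 cells are known to lack the CDKN2A and CDKN2B locus, which leaves CDKN2C and CDKN2D as their INK4 genes.

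The promoters of 3 members are shown because their levels stood apart from control: CDKN1A above and CDKN3 below after LY6K-AS knockdown, and CCNE1 below after YWHAG knockdown. Each runs from 250 bases before to 50 bases after a RefSeq start (build GRCh38.p14), 5′ to 3′ on the gene's strand, and capitals mark matches on either strand to GGGCGG (a GC box) or TTTGAA (the cell cycle homology region). The windows are chr6:36678464-36678763 (plus strand) for CDKN1A, chr14:54396757-54397056 (plus strand) for CDKN3 and chr19:29811741-29812040 (plus strand) for CCNE1.
CDKN1A: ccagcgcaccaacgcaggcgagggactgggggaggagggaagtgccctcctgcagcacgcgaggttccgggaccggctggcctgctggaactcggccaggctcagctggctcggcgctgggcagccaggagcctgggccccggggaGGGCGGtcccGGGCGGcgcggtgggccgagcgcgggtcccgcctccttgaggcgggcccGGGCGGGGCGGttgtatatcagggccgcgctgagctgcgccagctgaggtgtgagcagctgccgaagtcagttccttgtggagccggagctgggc
CDKN3: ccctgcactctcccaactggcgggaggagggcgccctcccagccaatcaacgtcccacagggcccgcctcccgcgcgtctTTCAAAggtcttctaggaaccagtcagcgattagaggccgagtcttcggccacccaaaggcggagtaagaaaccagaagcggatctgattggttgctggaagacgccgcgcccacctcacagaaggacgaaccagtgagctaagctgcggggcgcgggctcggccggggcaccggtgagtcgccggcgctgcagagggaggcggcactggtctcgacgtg
CCNE1: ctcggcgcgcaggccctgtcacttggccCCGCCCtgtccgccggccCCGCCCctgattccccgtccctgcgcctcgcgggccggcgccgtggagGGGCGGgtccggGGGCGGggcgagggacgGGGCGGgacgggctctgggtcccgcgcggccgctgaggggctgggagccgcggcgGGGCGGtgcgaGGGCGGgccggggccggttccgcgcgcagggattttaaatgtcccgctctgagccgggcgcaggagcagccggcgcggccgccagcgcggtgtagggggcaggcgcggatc

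The CDKN1A window held 4 GC boxes and the CCNE1 window 7, whereas the CDKN3 window held 0 GC boxes and 1 cell cycle homology region. RefSeq promoters were at hand for 7 members in 11 windows, with none for CDKN1C, CCND1 and CCNE2. A GC box was found in 8 of the 11 windows and in 45.0% of all 35116 promoter windows, and TTTGAA in 1 of the 11 and in 15.2% of all. The E2F sequences TTTCGCGC, TTTGGCGC and TTTCCCGC occurred in 0 of the 11 windows and in 2.74% of all windows, and TATAAA in 0 of the 11 and in 11.5% of all. These matches describe the letters in a short window and say nothing of binding.

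The depth behind these values came to 26179563 to 33968088 reads per library in the LNA table and 33737727 to 34560192 in the siRNA table, the totals that the authors divided by. Levels are given as RPKM, reads per kilobase of exon scaled to these totals. In the LNA table the authors had divided by gene span, introns included, and whether its reads were counted over exons alone is not stated, so its levels, and their order among genes, assume exon reads; comparisons of 1 gene between its libraries do not depend on the length, apart from the pseudocount and filter. YWHAG stood at 13.5 and 4.91 RPKM in YWHAG knockdown libraries 1 and 2, against 163 and 158 RPKM in siRNA controls 2 and 3 (the numbers in that table's header). For LY6K-AS, taken here to be the annotated gene LNCOC1, the knockdown libraries held 3 and 8 reads, against 34 and 17 reads in LNA controls 1 and 2. LNCOC1 stayed under 0.5 RPKM in every library and was not tested. All 6 epithelial markers (EPCAM, CDH1, KRT7, KRT8, KRT18 and KRT19) reached 0.5 RPKM in every group, with summed levels of 1505 to 1523 RPKM after LY6K-AS knockdown and 1275 to 1285 RPKM in its control, and of 1167 to 1222 RPKM after YWHAG knockdown and 853 to 939 RPKM in its control. Of 6 markers each, 0 endothelial, 1 to 2 fibroblast and 1 to 3 immune genes reached that level in a group. The RNA is bulk, so fewer cells in a phase and less RNA per cell cannot be told apart. The median log2 change over all genes tested was 0.0024 after LY6K-AS knockdown and -0.05 after YWHAG knockdown.

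**Figure D1:**
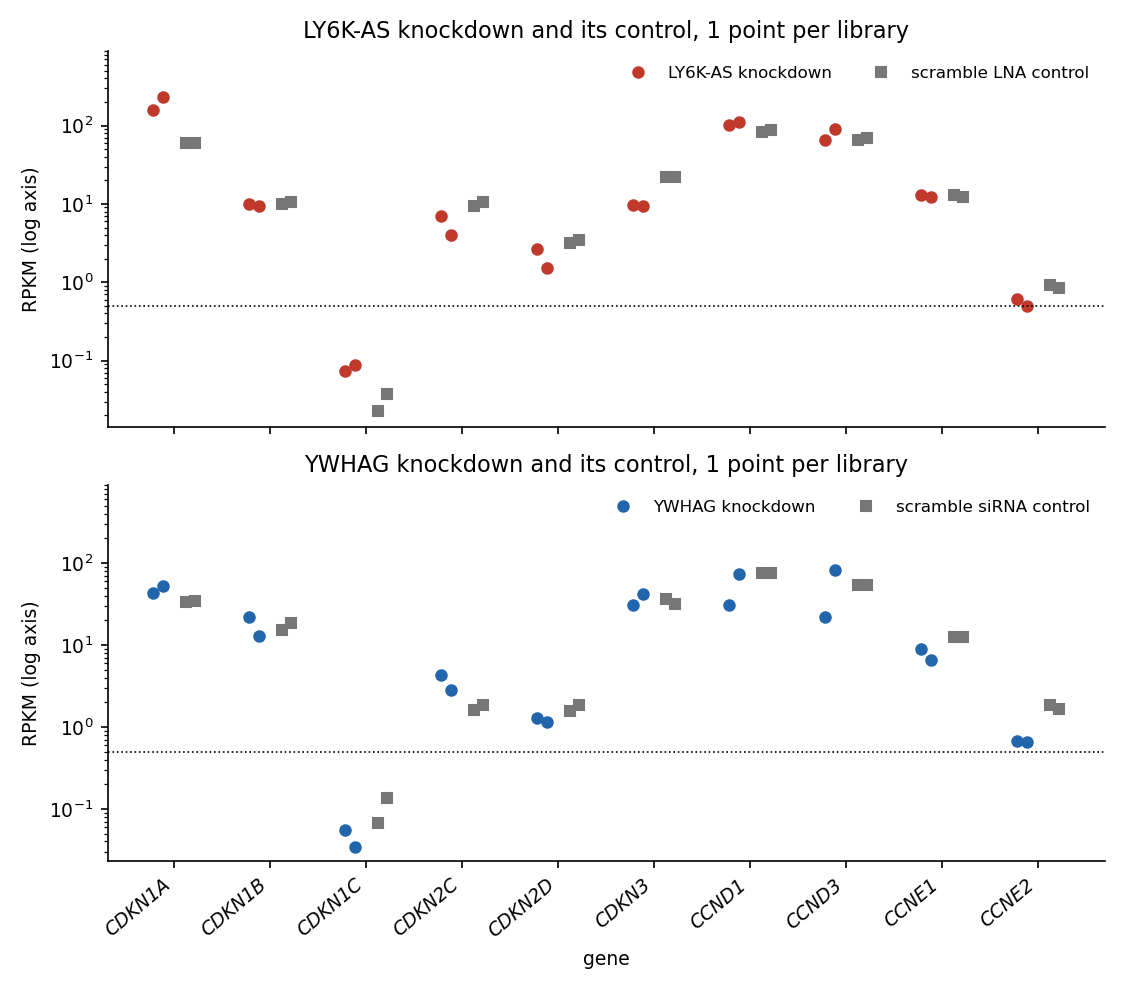
RPKM of the 10 genes (log axis) in each library, with knockdown libraries as circles left of their scramble controls as squares; the dotted line is the filter of 0.5 RPKM. CDKN1A circles lie above their squares in both panels, CDKN3 circles lie below theirs after LY6K-AS knockdown, and the CCND1 and CCND3 circles are far apart after YWHAG knockdown.

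The levels of the members spanned several orders of magnitude and put CDKN1A first in the LY6K-AS knockdown libraries. There CDKN1A averaged 196 ± 54.2 RPKM (mean ± SD, n = 2 throughout), above CCND1 at 106 ± 8.03 and CCND3 at 77.1 ± 17.8, whereas in the LNA controls CCND1 led at 85.1 ± 3.87 RPKM, followed by CCND3 at 67.0 ± 1.92 and CDKN1A at 59.4 ± 0.512. CDKN3, CCNE1, CDKN1B, CDKN2C, CDKN2D and CCNE2 followed in the LNA controls, where the ranges of CDKN1B and CDKN2C overlapped and no others did. In YWHAG knockdown libraries the ranges of CCND1, CCND3 and CDKN1A overlapped in turn, with means of 52.1 ± 30.1, 51.6 ± 41.9 and 47.5 ± 5.95 RPKM. In the siRNA controls CCND1 stood at 75.5 ± 1.11 RPKM, CCND3 at 54.1 ± 0.195 and CDKN1A at 34.0 ± 0.405, and CDKN1A overlapped CDKN3, while CCNE2, CDKN2C and CDKN2D overlapped in turn. CDKN1C, which encodes the Cip/Kip inhibitor p57, was last in all 4 groups. It read 0.0740 and 0.0878 RPKM in the LY6K-AS knockdown libraries against 0.0228 and 0.0380 RPKM in LNA controls, from about 5 and 7 reads against 2 and 3. In the YWHAG knockdown libraries it read 0.0559 and 0.0344 RPKM against 0.0673 and 0.135 RPKM in siRNA controls, from about 5 and 3 reads against 6 and 11. No test was made of CDKN1C, which stayed under the filter of 0.5 RPKM in at least 2 of 4 libraries that the other 9 members passed in both tables.

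Each knockdown was compared with the scramble control of its own table by limma's moderated test, over all genes passing the filter, on log2(RPKM + 1), a scale that understates the changes of low genes. After LY6K-AS knockdown 0 of the 9 tested members passed at an adjusted p under 0.05, and limma called 0.0% of the 14662 genes tested. At an unadjusted p under 0.05, 2 members were higher (CDKN1A and CCND1) and 3 lower (CDKN2C, CDKN3 and CCNE2), where 13.6% of all genes tested were higher and 11.7% lower. CCND1 and CCNE2 left this set, and CDKN2D joined it, under some of the other settings given further below. Both knockdown libraries lay above both controls for 2 members and below them for 5, as 31.4% and 30.5% of all genes did (62.0% in either direction). After YWHAG knockdown limma again called 0 members and 0.0% of the 13903 genes tested. There 2 members were higher at an unadjusted p under 0.05 (CDKN1A and CDKN2C) and 2 lower (CCNE1 and CCNE2), against 7.51% and 8.9% of all genes. Both libraries lay above both controls for 2 members and below for 4, against 20.4% and 30.8% of all genes (51.2% in either direction). With 2 libraries against 2, an exact permutation test of a single gene cannot go below a two-sided p of 0.333.

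**Figure D2:**
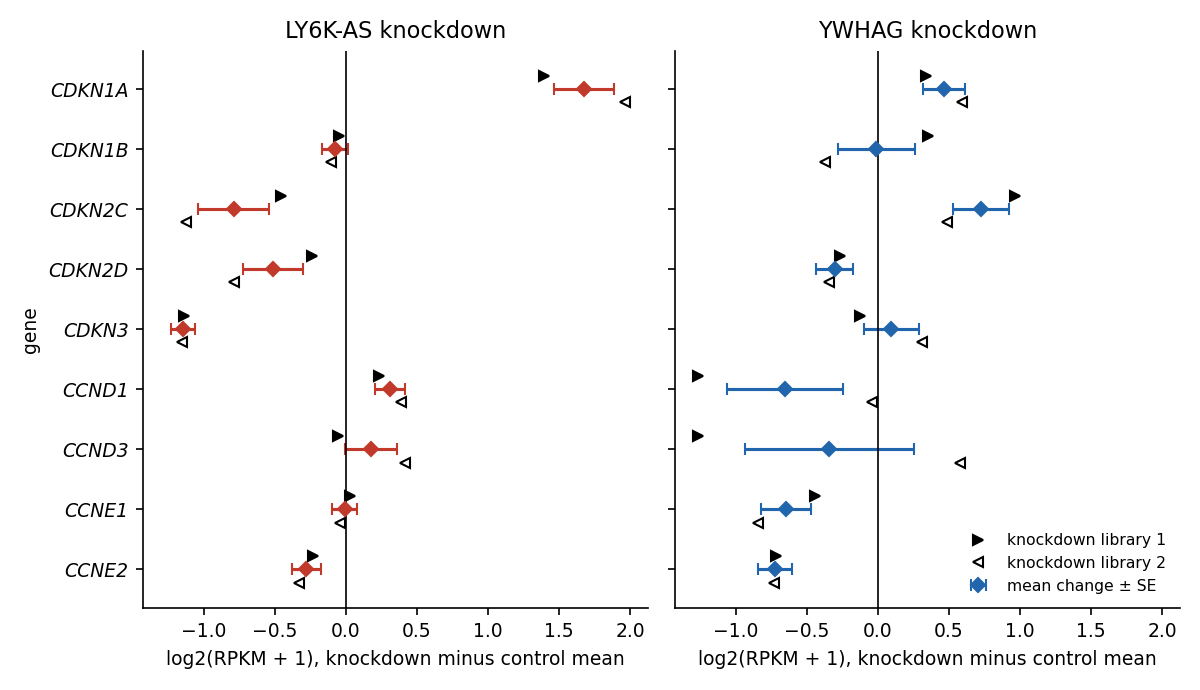
Log2(RPKM + 1) of knockdown minus control mean for the 9 tested genes, with diamonds for the mean change and its SE from limma and triangles for each knockdown library alone. CDKN1A is right of 0 in all 4 knockdown libraries (0.34 to 1.96), CDKN2C is left of 0 after LY6K-AS knockdown and right of 0 after YWHAG knockdown, and the CCND3 libraries after YWHAG knockdown lie on opposite sides of 0.

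Among the Cip/Kip inhibitors, CDKN1A was high in every knockdown library. CDKN1A (ENSG00000124762.13, hg38 chromosome 6, 36676460 to 36687339, plus strand) encodes p21, an inhibitor that arrests cells after DNA damage. It had 158 and 234 RPKM in LY6K-AS knockdown libraries 1 and 2, against 59.7 and 59.0 RPKM in LNA controls 1 and 2. The groups stood well apart, and knockdown library 2 was higher than library 1 by more than the controls differed from each other. A gap between knockdown libraries at least that wide was seen in 12.1% of genes tested. The log2 change was 1.68 ± 0.21 (SE), not past the threshold (limma adjusted p = 0.103), and a change of that size or more in either direction was seen in 0.0750% of genes tested. Counted over reads, knockdown over control was 3.35, with an exact Clopper-Pearson 95% interval of 3.28 to 3.42 that covers counting error only. Library 2 over library 1 was 1.49 (1.45 to 1.52). Knockdown libraries 1 and 2 had 8.37% and 4.12% of reads on mitochondrially encoded genes, against 8.43% and 6.43% in LNA controls 1 and 2. The part of that share in the result was not tested.

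In YWHAG knockdown cells CDKN1A had 43.3 and 51.7 RPKM, against 33.7 and 34.3 RPKM in the siRNA controls. Both knockdown libraries were again above both controls, with a smaller gap. Its log2 change of 0.47 ± 0.15 did not pass (limma adjusted p = 0.266), and the read ratio was 1.40 (1.35 to 1.44). The difference between the LY6K-AS and YWHAG effects was 1.21 ± 0.27 on the log2 scale and did not pass (limma adjusted p = 0.0971). That fit of all 8 libraries called 23 of 12861 genes, or 0.179%. Over fits with 1 library left out, the difference ran from 0.928 (without LY6K-AS knockdown 2) to 1.497 (without LY6K-AS knockdown 1). CDKN1A shares 146 exon bases with DINOL on the opposite strand, and whether counting used strand is not stated in any source read here.

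CDKN1B (ENSG00000111276.10, chromosome 12, 12715058 to 12722371, plus strand), which encodes p27, stayed near its control after LY6K-AS knockdown. It had 9.91 and 9.50 RPKM in the knockdown libraries and 9.91 and 10.6 RPKM in LNA controls, a log2 change of -0.07 ± 0.09 (limma adjusted p = 0.630). After YWHAG knockdown its libraries fell on opposite sides of the controls, with 21.9 RPKM in library 1 and 12.9 RPKM in library 2 against 15.4 and 18.7 RPKM in siRNA controls 2 and 3. Library 2 over library 1 was 0.589 in reads (0.549 to 0.632). The mean log2 change was -0.01 ± 0.27 (limma adjusted p = 0.990) and had no single direction: it was 0.35 without YWHAG knockdown 2 and -0.37 without knockdown 1, and 0.04 with median-of-ratios scaling.

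The groups of the INK4 gene CDKN2C stood apart in opposite directions after the 2 knockdowns. CDKN2C (ENSG00000123080.10, chromosome 1, 50960745 to 50974633, plus strand) encodes p18, an inhibitor of CDK4 and CDK6. It had 7.02 and 4.03 RPKM in the LY6K-AS knockdown libraries, against 9.33 and 10.7 RPKM in LNA controls 1 and 2. It had 4.33 and 2.82 RPKM in the YWHAG knockdown libraries, against 1.61 and 1.85 RPKM in siRNA controls 2 and 3. Both LY6K-AS knockdown libraries were thus below their controls and both YWHAG knockdown libraries above theirs. The log2 changes were -0.79 ± 0.25 after LY6K-AS knockdown (limma adjusted p = 0.165) and 0.73 ± 0.20 after YWHAG knockdown (limma adjusted p = 0.248), with read ratios of 0.543 (0.503 to 0.585) and 2.07 (1.84 to 2.34). The difference between the effects was -1.52 ± 0.35 and did not pass (limma adjusted p = 0.102). With 1 library left out it ran from -1.85 to -1.18.

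CDKN2D (ENSG00000129355.6, chromosome 19, 10566462 to 10569059, minus strand), which encodes the INK4 protein p19, was lower than control in all 4 knockdown libraries. It had 2.67 and 1.51 RPKM after LY6K-AS knockdown against 3.21 and 3.44 RPKM in LNA controls, a log2 change of -0.51 ± 0.21 (limma adjusted p = 0.224) and a read ratio of 0.614 (0.508 to 0.741). It had 1.27 and 1.14 RPKM after YWHAG knockdown against 1.58 and 1.87 RPKM in siRNA controls, a log2 change of -0.30 ± 0.13 (limma adjusted p = 0.328) and a read ratio of 0.699 (0.552 to 0.884). Neither change passed. Of the INK4 genes that A549 cells are known to lack, CDKN2A had 0 reads in all 8 libraries and CDKN2B 1 read in LNA control 2 and 0 in the 7 others, where 0 reads allow up to 3 reads, or 0.0868 to 0.115 RPM. CCND2, the remaining D cyclin gene, had at most 0.0053 RPKM in any library.

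After LY6K-AS knockdown CDKN3 stood below control in libraries that nearly coincided. CDKN3 (ENSG00000100526.19, chromosome 14, 54396849 to 54420218, plus strand) encodes a phosphatase that removes the activating phosphate of CDK2 and is known as a gene of proliferating cells. It had 9.61 and 9.47 RPKM in the LY6K-AS knockdown libraries, against 22.3 and 22.3 RPKM in LNA controls 1 and 2. The libraries of each group nearly coincided and the groups stood far apart. The log2 change was -1.14 ± 0.08 and did not pass over all genes (limma adjusted p = 0.103), with a read ratio of 0.428 (0.397 to 0.460).

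After YWHAG knockdown the groups of CDKN3 overlapped, with 30.9 and 42.3 RPKM in the knockdown libraries and 36.1 and 31.7 RPKM in siRNA controls 2 and 3. Their log2 difference was 0.09 ± 0.19 (limma adjusted p = 0.835), and -0.13 without YWHAG knockdown 2. The difference between the effects, -1.24 ± 0.23, did not pass (limma adjusted p = 0.0747). With 1 library left out it ran from -1.46 to -1.02.

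The D cyclin genes were higher or near control after LY6K-AS knockdown and split between the YWHAG knockdown libraries. CCND1 (ENSG00000110092.3, chromosome 11, 69641087 to 69654474, plus strand) encodes cyclin D1, which activates CDK4 and CDK6 upon growth factor signalling. It had 100.3 and 112 RPKM in the LY6K-AS knockdown libraries, against 82.4 and 87.9 RPKM in LNA controls. Both knockdown libraries were above both controls, a log2 change of 0.31 ± 0.10 (limma adjusted p = 0.175, not passed) with a read ratio of 1.25 (1.23 to 1.27). After YWHAG knockdown CCND1 had 30.9 RPKM in library 1 and 73.4 RPKM in library 2, against 74.7 and 76.3 RPKM in the siRNA controls. Library 1 was far below the controls and library 2 just below them, and library 2 over library 1 came to 2.38 in reads (2.30 to 2.46). On the log2 scale CCND1 was at -0.65 ± 0.41 (limma adjusted p = 0.470), or -1.26 without knockdown 2 and -0.04 without knockdown 1. The difference between the effects, 0.96 ± 0.48, did not pass (limma adjusted p = 0.304). It was 0.35 without YWHAG knockdown 1 and 1.58 without YWHAG knockdown 2. A gap between the knockdown libraries as wide as that after YWHAG knockdown was seen in 1.99% of genes tested. CCND1 shares 497 exon bases with LTO1 on the opposite strand, which had 1.83 and 1.83 RPKM after YWHAG knockdown and 1.88 and 1.83 RPKM in the controls. After LY6K-AS knockdown LTO1 had 4.25 and 5.08 RPKM, against 3.89 and 3.97 RPKM in LNA controls. It thus lay above its controls there, as CCND1 did, with a read ratio of 1.20 (1.12 to 1.27). The part of LTO1 reads in the CCND1 values was not tested.

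CCND3 (ENSG00000112576.12, chromosome 6, 41934933 to 42050357, minus strand) encodes cyclin D3, a further partner of CDK4 and CDK6. In the LY6K-AS knockdown libraries it had 64.5 and 89.7 RPKM, against 65.7 and 68.4 RPKM in LNA controls. Library 1 was just below the controls and library 2 above them, and the log2 change was 0.18 ± 0.18 (limma adjusted p = 0.560), or -0.06 without knockdown 2. In the YWHAG knockdown libraries CCND3 had 21.98 and 81.2 RPKM, against 54.2 and 54.0 RPKM in siRNA controls. Library 1 was below and library 2 above both controls, a gap between knockdown libraries matched by 0.302% of genes tested. Library 2 over library 1 was 3.69 in reads (3.57 to 3.82). The mean log2 change of -0.34 ± 0.60 (limma adjusted p = 0.804) thus combined -1.26 in library 1 and 0.58 in library 2, which held 13.5 and 4.91 RPKM of YWHAG. The difference between the effects, 0.52 ± 0.72, did not pass (limma adjusted p = 0.712). It was -0.40 without YWHAG knockdown 1 and 1.44 without YWHAG knockdown 2.

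The E cyclin genes were lower in both YWHAG knockdown libraries. CCNE1 (ENSG00000105173.13, chromosome 19, 29811898 to 29824308, plus strand) encodes cyclin E1, which activates CDK2 late in G1. After YWHAG knockdown it had 8.93 and 6.54 RPKM, against 12.5 and 12.5 RPKM in the siRNA controls. Both knockdown libraries were below controls that nearly coincided, a log2 change of -0.64 ± 0.18 (limma adjusted p = 0.248, not passed) with a read ratio of 0.619 (0.578 to 0.663). After LY6K-AS knockdown the groups overlapped, with 12.9 and 12.3 RPKM in the knockdown libraries and 13.0 and 12.3 RPKM in LNA controls. The log2 change was -0.01 ± 0.09 (limma adjusted p = 0.969) and changed sign when LNA control 1 or knockdown 2 was left out (0.03 each). The difference between the effects was 0.64 ± 0.21 and did not pass (limma adjusted p = 0.164). With 1 library left out it ran from 0.44 to 0.83.

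CCNE2 (identifier ENSG00000175305, chromosome 8, 94879770 to 94896678, minus strand) encodes cyclin E2, the other E-type partner of CDK2, and was lower than control in all 4 knockdown libraries. It had 0.678 and 0.661 RPKM after YWHAG knockdown, against 1.86 and 1.66 RPKM in the siRNA controls. The knockdown libraries nearly coincided, well below the controls. The log2 change was -0.73 ± 0.12 (limma adjusted p = 0.179), and the read ratio, which does not depend on the pseudocount, was 0.380 (0.321 to 0.448). After LY6K-AS knockdown it had 0.608 and 0.501 RPKM against 0.911 and 0.856 RPKM in LNA controls, a log2 change of -0.28 ± 0.10 (limma adjusted p = 0.195) and a read ratio of 0.622 (0.501 to 0.768). CCNE2 shares 1629 exon bases with INTS8 on the opposite strand. INTS8 had 8.45 and 9.57 RPKM after YWHAG knockdown and 9.08 and 9.07 RPKM in its controls, and 6.09 and 5.39 RPKM after LY6K-AS knockdown and 7.21 and 6.81 RPKM in its controls, so it overlapped its controls in the first comparison and lay below them in the second.

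With the spread pooled over all 8 libraries 3 of these changes passed. CDKN1A rose (1.68 ± 0.19, limma adjusted p = 0.0451) and CDKN3 fell (-1.14 ± 0.16, limma adjusted p = 0.0457) after LY6K-AS knockdown, and CCNE2 fell after YWHAG knockdown (-0.73 ± 0.11, limma adjusted p = 0.0296). This fit covered the 12861 genes tested in both tables and called 0.498% of them after LY6K-AS knockdown (0.194% higher and 0.303% lower) and 1.66% after YWHAG knockdown (1.09% higher and 0.575% lower). The next smallest p among members was that of CCNE1 after YWHAG knockdown (limma adjusted p = 0.0817). Leaving out LY6K-AS knockdown 1 or 2 also passed CDKN1A (1.96 and 1.39), CDKN3 (-1.15 and -1.13) and CDKN2C (-1.13 and -0.45). CDKN2D (-0.79), CCND1 (0.39) and CCND3 (0.41) passed without knockdown 1 alone. Those fits take the spread of the lone knockdown library from the 2 controls, and they called 7725 genes without knockdown 1 and 4350 without knockdown 2, of 14662.

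Transcript GC content moved with the LY6K-AS result. Over the 14662 genes tested, Spearman's rho between GC percentage and log2 change was 0.54, against 0.03 after YWHAG knockdown; all genes share the same 4 libraries, and the part of GC content in the result was not tested. CDKN1A transcripts hold 58.6% GC, CDKN3 43.0% and CCNE2 38.5%. After each library was adjusted for GC content, the LY6K-AS changes were 1.47 for CDKN1A, -0.99 for CDKN3 and -0.89 for CDKN2C, while CDKN2D stood at -0.80, CCND1 at 0.19, CCND3 at -0.05 and CCNE2 at -0.10.

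Summed by family, the RNA of Cip/Kip inhibitors was 168 and 244 RPKM in the LY6K-AS knockdown libraries, against 69.7 and 69.7 RPKM in LNA controls. CDKN1A made up 94.0% and 96.1% of that sum after knockdown and 85.7% and 84.7% in the controls. INK4 RNA was 9.69 and 5.54 RPKM after LY6K-AS knockdown against 12.5 and 14.1 RPKM in its controls. The 2 inhibitor families thus lay on opposite sides of their controls, Cip/Kip above and INK4 below. D cyclin RNA was 165 and 201 RPKM after LY6K-AS knockdown and 148 and 156 RPKM in its controls, and E cyclin RNA was 13.6 and 12.8 RPKM against 13.9 and 13.2 RPKM.

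After YWHAG knockdown the Cip/Kip sum was 65.2 and 64.6 RPKM against 49.2 and 53.1 RPKM in siRNA controls, and the INK4 sum was 5.60 and 3.97 RPKM against 3.19 and 3.73 RPKM. D cyclin RNA was 52.8 RPKM in knockdown library 1 and 155 RPKM in library 2, against 129 and 130.2 RPKM in the controls. E cyclin RNA was 9.61 and 7.20 RPKM against 14.4 and 14.2 RPKM. Both inhibitor sums were above their controls and the E cyclin sum below, while the D cyclin sum lay on either side. The INK4 sum followed CDKN2C, while CDKN2D lay below both controls in both knockdown libraries. CDKN1A made up 66.4% and 80.0% of the Cip/Kip sum after YWHAG knockdown and 68.6% and 64.6% in siRNA controls 2 and 3. CDKN1B lay on either side of its controls. CCND1 kept 58.4% and 47.5% of the D cyclin sum in these knockdown libraries, against 57.9% and 58.6% in the controls. These sums carry no test, and the Cip/Kip and E cyclin sums are mostly CDKN1A and CCNE1.

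**Figure D3:**
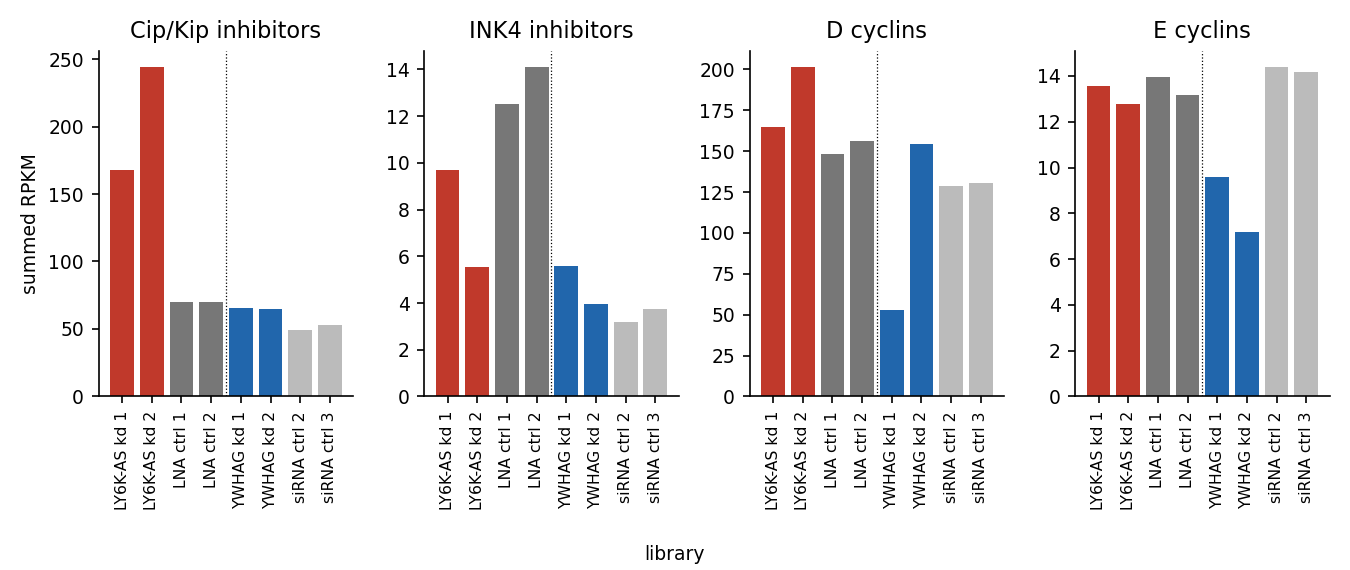
Summed RPKM of the Cip/Kip inhibitors, INK4 inhibitors, D cyclins and E cyclins in each library (bars from 0), with each knockdown left of its control and a dotted line between the tables, which were normalized separately. Cip/Kip RNA is 168 and 244 RPKM after LY6K-AS knockdown against 69.7 RPKM in both controls, and D cyclin RNA is 52.8 and 155 RPKM in the YWHAG knockdown libraries.

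The genes most like CDKN1A in pattern were sought over the 8 libraries, each table centred on its own mean, among 8812 genes with a mean of at least 2 RPKM in each table. The 5 with the highest Pearson r were GADD45A, a DNA damage response gene (0.998), SEZ6L2 (0.989), PAPSS2 (0.985), ISOC2 (0.984) and XPC, a nucleotide excision repair factor (0.983). GADD45A was 1.36 higher on the log2 scale after LY6K-AS knockdown and 0.35 higher after YWHAG knockdown. The 5 most like CDKN3 were CDC6, a replication licensing factor (0.998), SSRP1, a histone chaperone subunit (0.986), HSPA14 (0.986), the small GTPase RAN (0.981) and MRPL35 (0.980). CDC6 stood at -0.88 and 0.11 after the LY6K-AS and YWHAG knockdowns. These r values rest on 2 knockdowns with 2 libraries a group, and are given as descriptions.

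Of 64 other genes of the G1/S machinery, 61 were tested in each comparison. After LY6K-AS knockdown 0 passed, 47 were lower and 14 higher, where 7288 of all 14662 genes were lower; the median over the 61 was -0.23. At an unadjusted p under 0.05, 24 were lower and 2 higher (11.7% and 13.6% of all genes), and both knockdown libraries lay below both controls for 39 and above for 8 (30.5% and 31.4% of all genes). All 10 genes listed as G1 kinases and their activators were lower (median -0.40, 8 at an unadjusted p under 0.05). That list held CDK2, CDK4, CDK6, CDK7, CCNH, MNAT1, CDC25A, CDC25B, CDC25C and CCNA2, with CCNA2 (-1.22) and CDC25C (-0.89) lowest. CCNA2, CDC25B and CDC25C act mainly after G1, so the list is not confined to G1 despite its name. Also lower were 11 of 13 pocket protein, E2F and DP genes (median -0.26, 7 at that p). So were 12 of 16 ubiquitin ligase parts (median -0.28, 6) and 14 of 22 transcription regulators of the members (median -0.09, 3). The direct partners of the members were lower in both knockdown libraries: CDK2 had 9.71 and 7.63 RPKM against 14.9 and 14.8 RPKM in LNA controls. CDK4 had 27.3 and 27.4 RPKM against 33.8 and 33.8 RPKM, CDK6 6.34 and 6.46 RPKM against 8.04 and 8.64 RPKM, and RB1 7.74 and 8.21 RPKM against 10.3 and 10.2 RPKM. Adjusting for GC content left log2 changes of -0.73 for CDK2 (-0.72 without it) and -0.42 for CDK4 (-0.30 without it). It left -0.18 for CDK6 (-0.34 without it) and -0.15 for RB1 (-0.32 without it).

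The 4 lower genes with the smallest p were CDC25C, a phosphatase that activates CDK1 (-0.89 ± 0.10), CKS1B and SKP2, parts of the ubiquitin ligase that marks p27 (-0.73 ± 0.09 and -0.68 ± 0.09), and DTL, the receptor of the ligase that degrades p21 in S phase (-0.87 ± 0.14), each at a limma adjusted p of 0.103. SKP2 had 4.09 and 4.17 RPKM after LY6K-AS knockdown against 7.29 and 7.12 RPKM in LNA controls, and DTL 7.45 and 5.80 RPKM against 12.9 and 12.9 RPKM. The 4 higher genes with the smallest p were KLF4, a factor that can activate CDKN1A (0.81 ± 0.26), MDM2, a ubiquitin ligase (0.82 ± 0.30), LIN37 (0.32 ± 0.13) and FBXO31 (0.20 ± 0.09), with limma adjusted p from 0.169 to 0.243. MDM2 had 8.02 and 15.1 RPKM after knockdown against 5.79 and 5.91 RPKM, higher in the same library as CDKN1A. With the GC trend removed KLF4 was at 0.71, MDM2 at 0.98, LIN37 at 0.086 and FBXO31 at -0.03.

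After YWHAG knockdown 0 of the 61 passed, 48 were lower and 13 higher, where 8008 of all 13903 genes were lower; the median over the 61 was -0.13. At an unadjusted p under 0.05, 9 were lower and 2 higher (8.9% and 7.51% of all genes), and both knockdown libraries lay below both controls for 28 and above for 7 (30.8% and 20.4% of all genes). The list medians were -0.08 for G1 kinases and activators (7 of 10 lower), -0.29 for pocket proteins, E2F and DP factors (11 of 13), -0.13 for ubiquitin ligase parts (12 of 16) and -0.14 for transcription regulators (18 of 22). The 4 lower genes with the smallest p were TFDP2, a dimerisation partner of E2F factors (-0.58 ± 0.13), E2F1 (-0.78 ± 0.20), FOXM1, a mitotic transcription factor (-0.56 ± 0.15), and FBXW7, the ubiquitin ligase receptor for cyclin E (-0.50 ± 0.14), with limma adjusted p from 0.212 to 0.248. E2F1, a known activator of the E cyclin genes, had 6.27 and 9.11 RPKM against 13.4 and 14.2 RPKM in siRNA controls. E2F1 also lay below its controls after LY6K-AS knockdown, with 35.02 and 28.6 RPKM against 46.9 and 49.2 RPKM (-0.59, and -0.91 with the GC trend removed).

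The 4 higher genes with the smallest p after YWHAG knockdown were MXI1, an antagonist of MYC (0.54 ± 0.14), CDK6 (0.91 ± 0.28), CDC25B (0.29 ± 0.15) and KLF4 (0.27 ± 0.15), with limma adjusted p from 0.236 to 0.427. CDK6 had 13.4 and 7.41 RPKM after YWHAG knockdown against 4.87 and 4.88 RPKM, highest in the library where CCND1 and CCND3 were lowest. CDK2 had 8.27 and 9.10 RPKM against 12.2 and 11.4 RPKM (-0.40 ± 0.13, limma adjusted p = 0.270). CDK4 had 27.4 and 22.9 RPKM against 25.4 and 24.9 RPKM, and RB1 had 10.3 and 8.84 RPKM against 9.47 and 8.96 RPKM, so both were on either side of their controls. MDM2 had 3.67 and 3.21 RPKM against 4.38 and 4.77 RPKM, below its controls while CDKN1A was above its own.

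**Figure D4:**
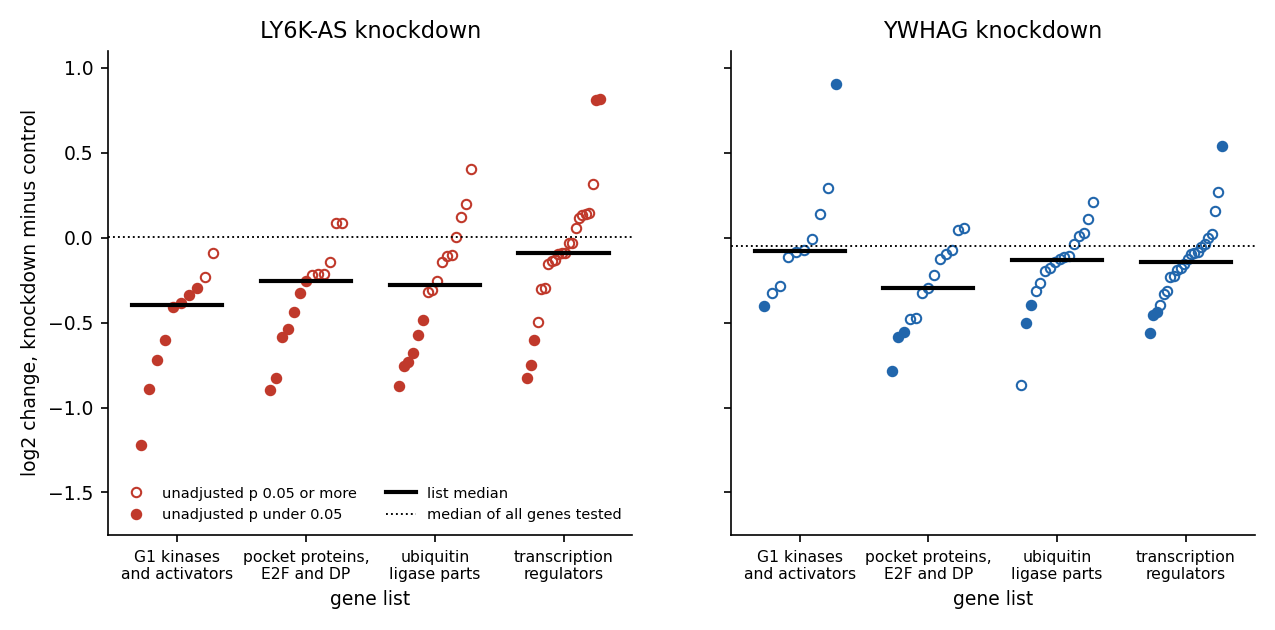
Log2 change, knockdown minus control, of the 61 other tested G1/S genes in 4 lists, 1 point per gene (filled at an unadjusted p under 0.05), with list medians as bars and the median of all genes tested as a dotted line. After LY6K-AS knockdown the 10 genes listed as G1 kinases and activators all lie below 0 (median -0.40), and after YWHAG knockdown CDK6 is the highest point (0.91). That list includes CCNA2, CDC25B and CDC25C, which act mainly after G1.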

How the data were processed

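RNA-seq libraries of A549 cells were deposited as 2 tables of RPKM, normalized separately by the authors. Per the submitters' processing notes, hg38 and the tools STAR, featureCounts, Subread and Picard were used, with no version or role given. In the LNA table the deposited RPKM times gene end minus start gave whole reads for 100% of values of same-version genes (within 0.05 reads), so these values were rescaled per kilobase of merged exon length; the siRNA table already used that length. Recovered reads of CCNE2 came out whole although its identifier version differs; those of CDKN1C did not, and its length is unchecked. Genes reaching 0.5 RPKM in 2 or more of a comparison's 4 libraries were tested with limma 3.58.1 under R 4.3.3 (log2(RPKM + 1), variance trend by mean level), a scale that understates changes of low genes; tests were two-sided, with Benjamini-Hochberg adjustment over all genes and a threshold of 0.05. The 9151 unmatched genes were left out of the LNA table. Comparisons within a table had 2 residual degrees of freedom, and the difference between effects used all 8 libraries. The siRNA control columns, numbered 2 and 3, were assigned to their group only. LNA libraries of the same number deviated together weakly (r 0.08 across genes), so no pairing was taken. Alternatives covered pseudocounts, filter, scaling, trend, voom, pooled spread, GC, deposited values, replicate block and omitted libraries. Members, lists and the rule for named genes (all members; fixed partners; per direction the 4 other genes with the smallest p; the 5 genes most like CDKN1A and CDKN3) were chosen with earlier results of these data known. Fits were checked on simulated data. 1 further gene of the lists is not reported here.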

Additional observations from a re-analysis of the deposited data

Results flagged for a closer look

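CDKN2C was picked out because both LY6K-AS knockdown libraries lay below both controls and both YWHAG knockdown libraries above both of theirs. The difference between the effects was -1.52 on the log2 scale and did not pass (limma adjusted p = 0.102). With 1 library left out it ran from -1.85 to -1.18. CCND1 was picked out in the opposite sense, above its controls after LY6K-AS knockdown and below them after YWHAG knockdown. Its difference was 0.96 (limma adjusted p = 0.304, not passed), or 1.58 without YWHAG knockdown 2 and 0.35 without YWHAG knockdown 1. With groups of 2 libraries, single libraries were not screened for standing apart.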

How the results depend on the processing

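Of 27 member results (9 genes, 2 knockdowns and their difference), 18 kept their direction under each alternative run, and 17 of 351 values had the other sign. The count of genes called was 0 in both knockdowns; with the spread pooled over 8 libraries it was 64 after LY6K-AS knockdown and 214 after YWHAG knockdown. Leaving out 1 library gave 0 to 7725 calls after LY6K-AS knockdown and 0 after YWHAG knockdown. The difference between effects had 23 calls (6 higher, 17 lower), 48 with median-of-ratios scaling, 17 (2 higher, 15 lower) with the GC trend removed, and 0 to 1185 with 1 library left out. The cause of these shifts was not tested. With a replicate block LY6K-AS knockdown had 0 calls, 3432 at an unadjusted p under 0.05 against 3706 without it, and 0 calls with the GC trend also removed; the block changed no other call, and none could be fitted for YWHAG because its control columns carry other numbers than the labels. Other signs after LY6K-AS knockdown, with the GC trend removed (with or without the block): CDKN1B 0.00033, CCND3 -0.047, FBXO31 -0.026. After YWHAG knockdown, CDKN1B was 0.045 with median-of-ratios scaling and 0.069 with the GC trend removed, and CDK4 0.049 and 0.047. With 1 library left out, results of changing sign ran as follows. After LY6K-AS knockdown CCND3 had -0.055 to 0.41, CCNE1 -0.045 to 0.032, MXI1 -0.085 to 0.35 and the E cyclin sum, as log2 ratio, -0.086 to 0.00032. After YWHAG knockdown CDKN1B had -0.37 to 0.35, CDKN3 -0.13 to 0.31, CCND3 -1.26 to 0.58, CDK4 -0.13 to 0.12, RB1 -0.054 to 0.14, FBXO31 -0.10 to 0.12, CKS1B -0.41 to 0.16, DTL -0.43 to 0.028 and the D cyclin sum -1.29 to 0.25. For the difference, CDKN1B had -0.43 to 0.30, CDKN2D -0.48 to 0.066 and CCND3 -0.40 to 1.44. On the values as deposited, where the same pseudocount meets smaller values, CDKN3 was -0.65 and CCNE2 -0.10 after LY6K-AS knockdown. With a pseudocount of 0.1 CCNE2 was -0.59 after LY6K-AS knockdown and -1.27 after YWHAG knockdown. Among the 9 tested members depth limits CDKN2D and CCNE2 most, whose read ratios have the widest counting intervals; CDKN1C lay under the filter and was not tested.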

Other observations

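The sum of Cip/Kip and INK4 inhibitor RNA divided by the sum of D and E cyclin RNA was 0.995 and 1.17 in the LY6K-AS knockdown libraries, against 0.508 and 0.495 in LNA controls 1 and 2. In the YWHAG knockdown libraries it was 1.13 and 0.424, against 0.365 and 0.393 in siRNA controls 2 and 3. The ratio was above both controls in each of the 4 knockdown libraries. In YWHAG knockdown library 1 it went with a D cyclin sum of 52.8 RPKM, and in the LY6K-AS knockdown libraries with CDKN1A at 158 and 234 RPKM. These ratios sum RNA levels, carry no test and say nothing of protein.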
